A study of Bos taurus with 20 samples.

Results

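The genes described here are 8 enzymes or enzyme subunits of the tricarboxylic acid (TCA) cycle, measured in the back muscle of cattle that differ in intramuscular fat (IMF). They are citrate synthase (CS, NCBI Gene 280682), the isocitrate dehydrogenases IDH3A (282446) and IDH2 (327669), 2-oxoglutarate dehydrogenase (OGDH, 534599), the succinyl-CoA synthetase subunits SUCLG1 (509983) and SUCLA2 (511090), fumarase (FH, 520260) and malate dehydrogenase (MDH2, 281306). They were chosen by name, and every probe set that the platform annotation ties to exactly 1 of these symbols was taken. This gave 13 probe sets for 8 of the 9155 genes that have a single symbol on the array, with 2 probe sets each for CS, IDH3A, SUCLA2, FH and MDH2 and 1 each for IDH2, OGDH and SUCLG1. Of the 13 probe sets, 12 were bright enough to be tested. The weaker SUCLA2 probe set had signals between 0 and 9 on the 20 arrays, within the dimmest 40% of the array, and was left out of the tests.

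Total RNA came from Musculus longissimus dorsi, the long muscle of the back, of 20 bulls from the second filial generation (F2) of Holstein, a dairy breed, crossed with Charolais, a beef breed. The high IMF and low IMF groups held 10 bulls each, with 1 Affymetrix GeneChip array per bull, and the series asks how the muscle transcriptome differs between them. The sample titles carry animal numbers of 2 kinds, with an S (10 bulls) and without it (10 bulls), and each kind holds 5 high IMF and 5 low IMF bulls. What the S marks is not explained in the labels, which also give no ages and pair no animals, and the 2 kinds are called the S and no-S title series here.

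The TCA cycle runs in the mitochondrial matrix. It oxidises the acetyl groups of acetyl-CoA to carbon dioxide and hands the electrons to the respiratory chain as NADH and reduced flavin. In skeletal muscle its enzymes are most abundant in slow, oxidative fibres, and the activity of citrate synthase is widely used as a measure of mitochondrial content. Acetyl-CoA enters from pyruvate through the pyruvate dehydrogenase complex or from fatty acid oxidation.

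The values are deposited signal intensities per probe set on a linear scale, analysed as log2(intensity + 1). A probe set's intensity depends on its probes, so levels were compared between animals and never between genes. The arrays had median signals of 51.6 to 67.7, and the 2 lowest belonged to S animals of high IMF. Of the skeletal muscle markers, 6 of 8 were measured, and their summed signal lay between 74235 and 88351 in every animal. Of the heart markers, 3 of 5 were measured and summed to 135 to 245. Albumin, a liver transcript, gave a signal over 2000 on 4 arrays, 3 of them from high IMF S animals and 1 from a low IMF no-S animal. In bulk muscle RNA, fewer cells of a type and less RNA per cell cannot be told apart.

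No difference between high and low IMF muscle in the 8 enzymes was larger than the spread between animals. For each of them the ranges of both groups overlapped, as they did in all 14410 probe sets tested. In SUCLA2, IDH3A, FH and OGDH this overlap was fixed by the design and says nothing about IMF. Each IMF group holds S and no-S animals, whose ranges lay apart in these genes. With limma, 0 of the 12 member probe sets passed an adjusted p of 0.05, against 0 of 14410 probe sets (0%) over the whole array. At an unadjusted p under 0.05 the count was 0 of 12 member probe sets, against 1.66% of all probe sets. The methods' t-test also called 0 probe sets after adjustment and 258 at an unadjusted p under 0.05, none of them a member.

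At the entry of the cycle, CS joins acetyl-CoA to oxaloacetate. Its bright probe set had signals of 4170 to 5878 with a median of 5148 in high IMF muscle, against 4229 to 6767 with a median of 5063 in low IMF muscle. The log2 difference, high minus low, was -0.03 (SE 0.10, 95% confidence interval -0.23 to 0.17), and 6 of 10 high IMF animals lay above the low IMF median.

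IDH3A, the catalytic subunit of the NAD-linked isocitrate dehydrogenase, had signals of 1069 to 2738 (median 1808) in high IMF and 1015 to 2946 (median 1745) in low IMF muscle. IDH2, the NADP-linked enzyme of the same step, had 3761 to 6209 (median 4908) in high IMF and 3737 to 6766 (median 4550) in low IMF muscle. The groups covered almost the same range in both genes. In IDH3A an overlap was fixed by the design, since each group holds S and no-S animals, whose ranges lay apart. The log2 difference was -0.06 (SE 0.22) in IDH3A and -0.01 (SE 0.12) in IDH2.

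OGDH is the component of the 2-oxoglutarate dehydrogenase complex that removes carbon dioxide from 2-oxoglutarate. Its signals were 1727 to 3351 (median 2526) in high IMF and 1772 to 3672 (median 2438) in low IMF muscle, a log2 difference of -0.01 (SE 0.16). Succinyl-CoA synthetase is built from the alpha subunit SUCLG1 and a beta subunit, which is SUCLA2 in the ATP-forming enzyme and SUCLG2 in the GTP-forming one. SUCLG1 had 3352 to 4864 (median 4042) in high IMF and 3061 to 4463 (median 4028) in low IMF muscle. SUCLA2 had 1892 to 5618 (median 3405) in high IMF and 1969 to 6033 (median 3588) in low IMF muscle. SUCLG1 had a log2 difference of 0.06 (SE 0.09), with the smallest unadjusted limma p of the 8 genes (0.503), and SUCLA2 one of -0.10 (SE 0.26, 95% confidence interval -0.64 to 0.43).

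FH adds water to fumarate to give malate, and MDH2 oxidises malate to oxaloacetate, which closes the cycle. FH had 1759 to 4171 (median 2885) in high IMF and 1760 to 4240 (median 2726) in low IMF muscle, a log2 difference of -0.05 (SE 0.19). MDH2 had 8267 to 11006 (median 10306) in high IMF and 8177 to 10968 (median 10448) in low IMF muscle. Its log2 difference was 0.00 (SE 0.08, 95% confidence interval -0.17 to 0.17), the narrowest interval of the 8 genes. The other 4 tested probe sets of CS, IDH3A, FH and MDH2 lay between -0.11 and -0.05.

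**Figure D1:**
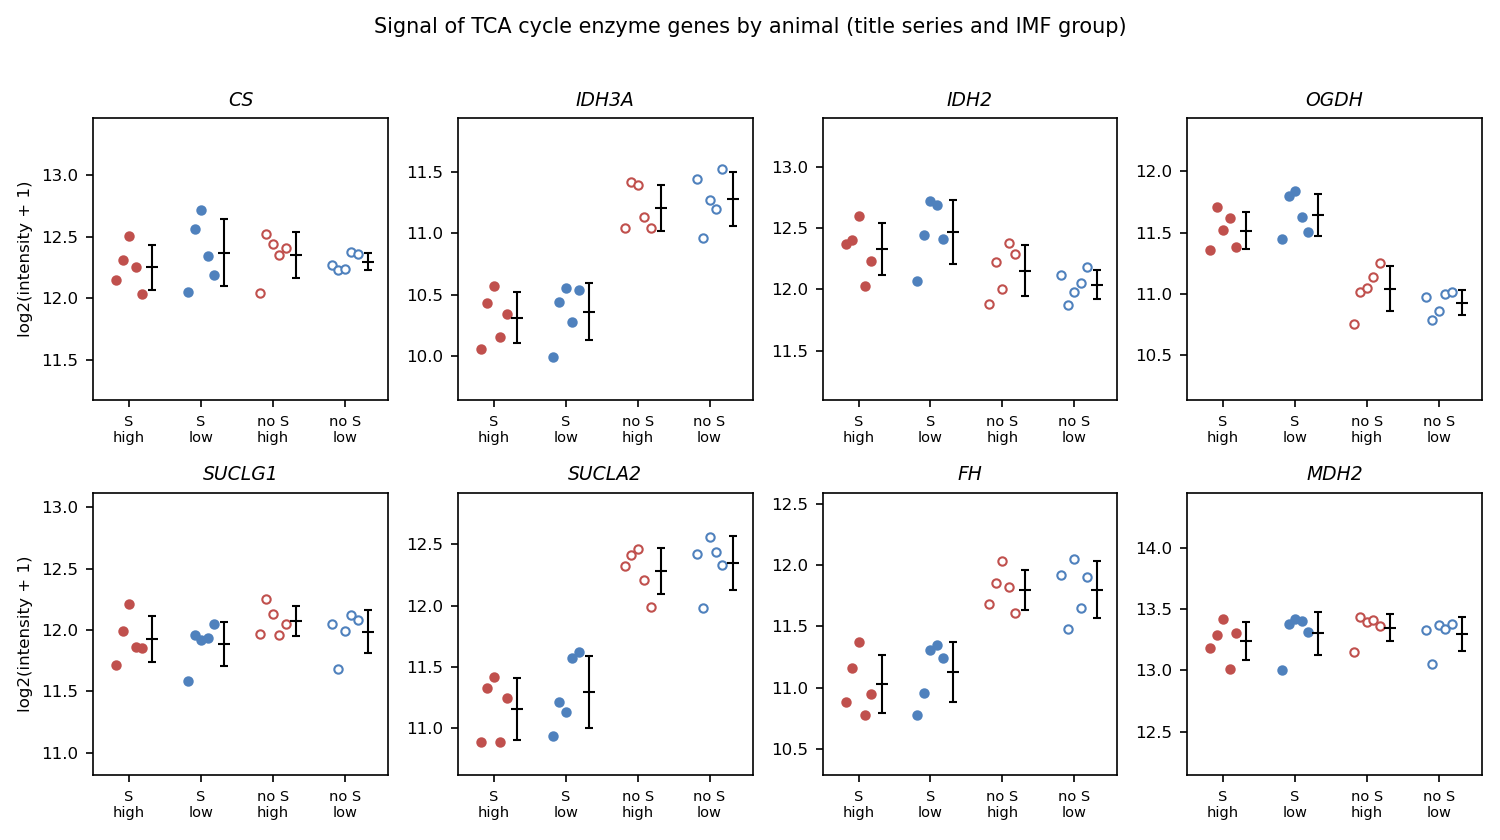
Signal of the 8 TCA cycle enzymes by animal, as log2(intensity + 1) of each gene's brightest probe set. Filled points are S animals and open points no-S animals, red for high IMF and blue for low IMF, and the bars beside them give the mean and SD of 5 animals. High and low IMF overlap in every panel, while S and no-S animals are apart in IDH3A, OGDH, SUCLA2 and FH. In these genes the overlap of the IMF groups follows from the design, since each group holds both kinds of animal.

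A limma model that also held the title series gave narrower intervals. In it the standard error of the high minus low difference was 0.10 in SUCLA2, 0.09 in IDH3A, 0.10 in FH and 0.08 in OGDH, while the differences stayed the same. The 95% confidence interval of SUCLA2 ran from -0.32 to 0.11, that of IDH3A from -0.26 to 0.13, and that of MDH2 from -0.16 to 0.15. In this fit 0 of 12 member probe sets passed, the lowest adjusted p among them was 0.842 (SUCLA2), and 0 had an unadjusted p under 0.05, against 7.34% of all probe sets. No interval of the 8 genes in that fit reached a difference of 0.50 log2 units in either direction.

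**Figure D2:**
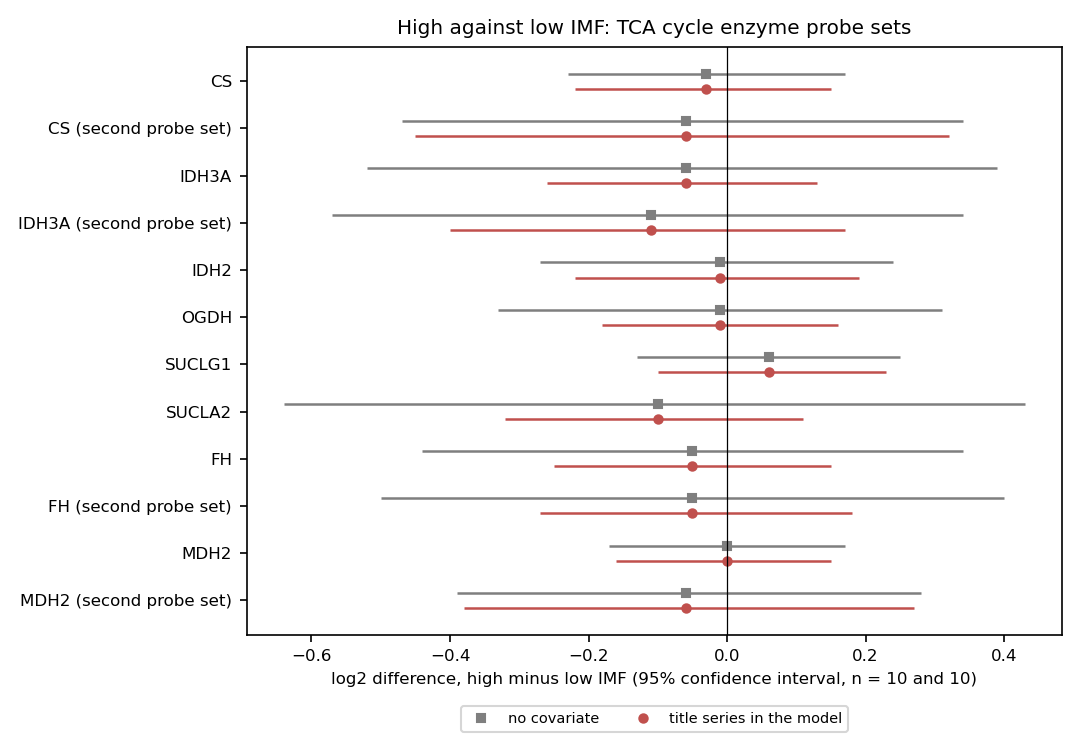
Log2 difference, high minus low IMF, of the 12 tested probe sets of the TCA cycle enzymes, with 95% confidence intervals from limma (10 against 10 bulls). Grey squares have no covariate and red circles hold the title series as a covariate. Every interval spans 0, and those of IDH3A, OGDH, SUCLA2 and FH are shorter with the covariate.

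The median log2 difference over the 8 genes was -0.02, as it was over all 7016 genes tested, and 7 of 8 lay below 0, against 59.8% of all probe sets. This direction depended on the scaling, since 3 of 8 lay below 0 once each array was centred on its median. The median was then 0.02 over the 8 genes and 0.01 over all probe sets. Within the S animals the median was -0.11 with 7 of 8 below 0, beside -0.07 over all genes and 67.5% of all probe sets below 0. That median turned to 0.03, with 3 of 8 below 0, without the 2 arrays of the lowest median signal, and 5 of 8 lay below 0 after quantile normalization. Within the no-S animals it was 0.06 with 3 of 8 below 0, beside 0.02 over all genes and 47.4% of all probe sets below 0. The log2 differences of the genes ran from -0.14 (IDH2 and SUCLA2) to 0.03 (SUCLG1) within S and from -0.08 (IDH3A) to 0.11 (IDH2 and OGDH) within no-S animals. In either title series limma called 0 member probe sets and 0 of all probe sets. At an unadjusted p under 0.05 there were 0 member probe sets in each, beside 1427 of all probe sets within S and 487 within no-S animals. The test of the difference between the IMF effects in S and no-S animals called 0 of 12 member probe sets (lowest adjusted p = 0.866 with limma) and 0 of all probe sets, and 0 members against 769 of all probe sets at an unadjusted p under 0.05.

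Fat cell and slow fibre markers of the same animals are set beside these values, and none of them passed limma's test either. Of 8 adipocyte markers, 7 had a probe set, and their summed signal was 1210 to 21897 (median 3215) in high IMF and 422 to 9941 (median 1197) in low IMF muscle. All 5 tested adipocyte markers lay above 0, with a median log2 difference of 1.65, and 3 of them had an unadjusted p under 0.05. Of 8 slow fibre markers 7 were measured, all 7 lay below 0 with a median of -0.12, and the summed signal was 56875 to 84475 (median 75263) in high IMF and 71269 to 85813 (median 83249) in low IMF muscle. Of all 7016 genes tested, 3972 lay below 0 and 3044 above 0. The part of either marker list in the values of the cycle enzymes was not tested.

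Between the title series, by contrast, the cycle genes moved apart from each other. SUCLA2, IDH3A and FH were lower in S than in no-S animals, OGDH and IDH2 were higher, and CS, SUCLG1 and MDH2 did not pass. With limma, 7 of the 12 member probe sets passed (2 higher and 5 lower in S), beside 68.4% of all probe sets. Of all probe sets, 33.5% were higher and 34.9% lower in S. The biotin-labelled hybridisation controls that are added to each sample also differed: BioB gave 204 to 355 in S and 397 to 482 in no-S animals, and BioC and BioDn were lower in S without overlap as well. Their part in the differences was not tested.

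SUCLA2 had the largest difference of the 8 genes. In S animals its signals were 1892, 2569, 2743, 1896 and 2428 in the 5 high IMF bulls and 1969, 2372, 2247, 3038 and 3150 in the 5 low IMF bulls. In no-S animals they were 5127, 5447, 5618, 4741 and 4067 in high IMF and 5460, 4026, 6033, 5569 and 5166 in low IMF bulls. The highest S animal, at 3150, lay below the lowest no-S animal, at 4026. The level in S was 0.471-fold that in no-S animals (log2 difference -1.09, SE 0.10, limma adjusted p = 1.54e-08), and 7.92% of all probe sets had a larger difference in size.

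IDH3A followed the same order. Its signals were 1015 to 1516 (median 1336) in S and 1996 to 2946 (median 2409) in no-S animals, so that every S animal lay below every no-S animal. The log2 difference was -0.91 (SE 0.09, 0.533-fold, limma adjusted p = 3.68e-08). Its weaker probe set, with signals of 77 to 174 in S and 168 to 298 in no-S animals, overlapped slightly and differed by -0.80 (SE 0.13, adjusted p = 2.3e-05).

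FH was lower in S by both of its probe sets. The bright probe set had 1759 to 2646 (median 2143) in S and 2851 to 4240 (median 3653) in no-S animals, without overlap, a log2 difference of -0.72 (SE 0.10, 0.607-fold, limma adjusted p = 1.22e-06). The weaker one had 362 to 659 in S and 648 to 981 in no-S animals and differed by -0.85 (SE 0.11, adjusted p = 6.34e-07).

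OGDH went the other way. In S animals its signals were 2623, 3351, 2931, 3153 and 2665 in high IMF and 2796, 3576, 3672, 3171 and 2909 in low IMF bulls. In no-S animals they were 1727, 2082, 2113, 2258 and 2429 in high IMF and 2013, 1772, 1862, 2046 and 2080 in low IMF bulls. Every S animal lay above every no-S animal, and the level in S was 1.51-fold that in no-S animals (log2 difference 0.60, SE 0.08, limma adjusted p = 9.88e-07). IDH2 was also higher in S, with 4168 to 6766 (median 5431) in S and 3737 to 5320 (median 4348) in no-S animals. These ranges overlapped, and the log2 difference was 0.30 (SE 0.09, 1.23-fold, limma adjusted p = 0.00804).

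The ranges of S and no-S animals did not overlap in 4 of 12 member probe sets, the bright ones of SUCLA2, IDH3A, FH and OGDH, against 19.6% of all probe sets (9.26% with S lower and 10.4% with S higher). The remaining 3 genes did not pass. CS had 4170 to 6767 (median 4970) in S and 4217 to 5878 (median 5246) in no-S animals, SUCLG1 3061 to 4746 (median 3898) in S and 3277 to 4864 (median 4236) in no-S animals, and MDH2 8177 to 10968 (median 10121) in S and 8466 to 11006 (median 10541) in no-S animals. The log2 difference, S minus no-S, was -0.01 in CS (95% confidence interval -0.20 to 0.17), -0.12 in SUCLG1 (-0.29 to 0.04) and -0.05 in MDH2 (-0.20 to 0.10). It turned to 0.05 in CS and 0.02 in MDH2 once arrays were centred on their medians. The weaker probe sets of CS (-0.26, adjusted p = 0.204 with limma) and MDH2 (0.14, adjusted p = 0.426) did not pass either. The median size of the difference was 0.45 log2 units over the 8 genes and 0.42 over all genes tested.

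The differences of the 5 genes that passed kept their direction and their call under median centring of the arrays, when SUCLA2 differed by -1.02, IDH3A by -0.84, FH by -0.66, OGDH by 0.66 and IDH2 by 0.37. They also did so in the fit without the 4 arrays of high albumin.

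Subunits of the same enzyme did not always move together. The signal of SUCLA2 relative to SUCLG1 on the same array averaged -0.68 ± 0.18 log2 units in S and 0.28 ± 0.16 in no-S animals (SD, n = 10 each), with ranges of -0.97 to -0.37 in S and -0.06 to 0.56 in no-S animals that do not overlap. The zero of such a ratio has no meaning, since probe sets differ in brightness, but its change between series is not moved by a scaling factor of the array. SUCLA2 was already apart between the series by itself, beside a log2 difference of -0.12 in SUCLG1, so this ratio mostly restates SUCLA2. Beyond the ratios given here none were computed, so how usual ranges without overlap are among ratios was not tested. SUCLG2, the beta subunit of the GTP-forming enzyme, was lower in S like SUCLA2 (-0.90, SE 0.14, limma adjusted p = 9.53e-06). The ratio of SUCLA2 to SUCLG2 averaged 0.92 ± 0.20 in S and 1.1 ± 0.09 in no-S animals, and these ranges overlapped.

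Subunits of the isocitrate and 2-oxoglutarate dehydrogenases also differed in direction. With 33.5% of all probe sets higher and 34.9% lower in S, opposite directions are frequent among any called genes. Whether they are more frequent among subunits of an enzyme was not tested. IDH3G, a regulatory subunit that assembles with IDH3A, was higher in S, with signals of 1906 to 2419 in S and 942 to 1582 in no-S animals (0.71, SE 0.08, adjusted p = 1.69e-07 with limma), while IDH3A was lower. DLD, the dihydrolipoamide dehydrogenase that OGDH shares with the pyruvate dehydrogenase complex, was lower in S, with 505 to 1337 in S and 1207 to 2301 in no-S animals (-1.11, SE 0.16, adjusted p = 3.69e-06), while OGDH was higher. Across different enzymes, the signal of OGDH relative to IDH3A averaged 1.25 ± 0.19 log2 units in S and -0.25 ± 0.22 in no-S animals. That of FH relative to MDH2 averaged -2.19 ± 0.13 in S and -1.52 ± 0.14 in no-S animals. Neither pair of ranges overlapped. For OGDH and IDH3A this had to be so, since each gene was already apart between the series, in opposite directions. The ratio of OGDH to IDH3A therefore adds no further result. FH was also already apart by itself, beside a log2 difference of -0.05 in MDH2, so the ratio of FH to MDH2 mostly restates FH.

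**Figure D3:**
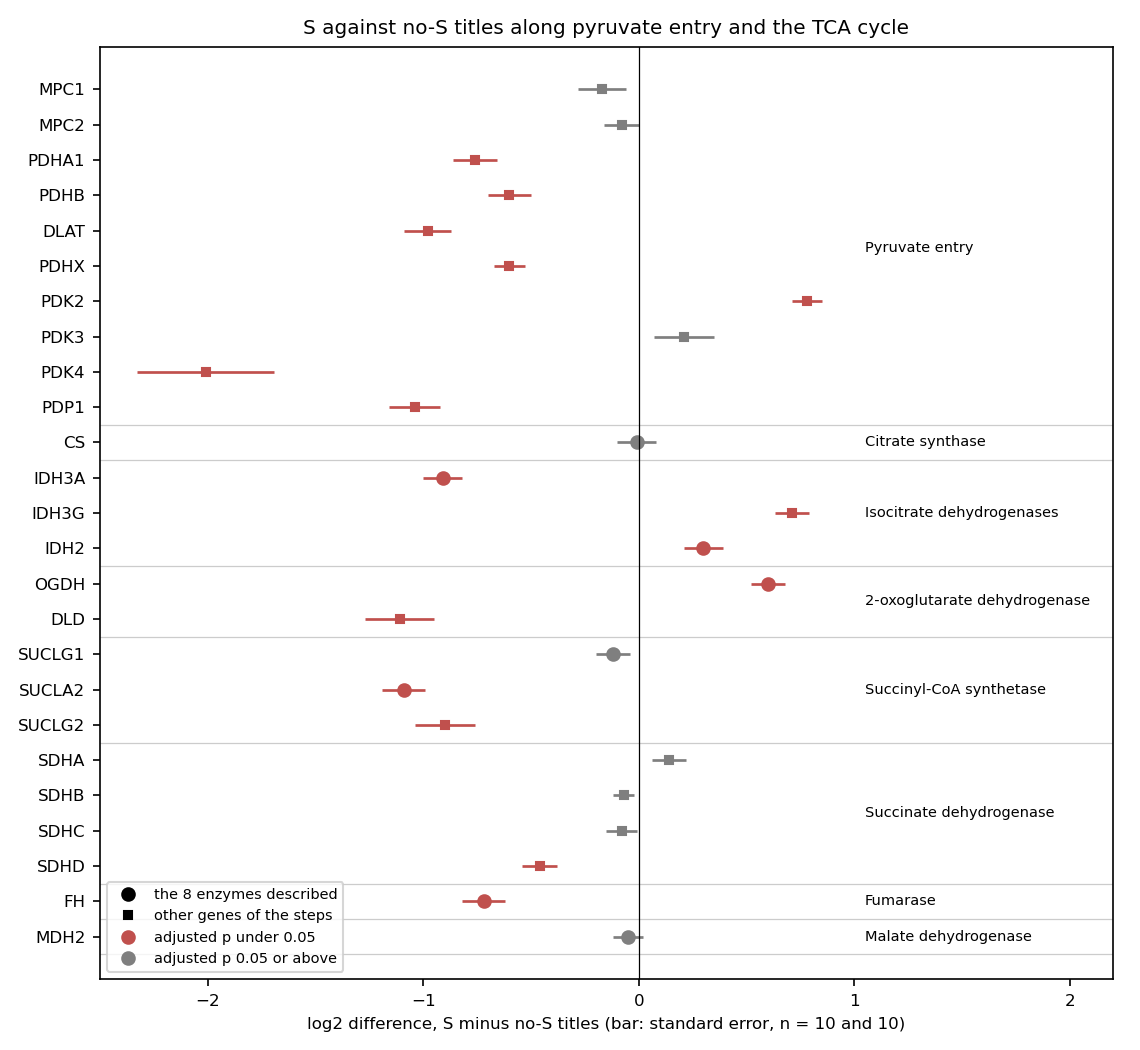
Log2 difference, S minus no-S titles, of the tested genes of pyruvate entry and of the TCA cycle, ordered by step, with the standard error as a bar (10 against 10 bulls). Circles are the 8 enzymes described and squares are other genes of the same steps, in red where limma's adjusted p was under 0.05. Subunits of the same enzyme lie on opposite sides of 0 in the isocitrate and 2-oxoglutarate dehydrogenases.

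Of the 10 other listed subunits of the cycle, 7 were tested: IDH3G was higher in S, DLD, SUCLG2 and SDHD were lower, and SDHA, SDHB and SDHC did not pass. Between the title series 4939 of all 7016 genes tested passed. SDHD, a membrane anchor of succinate dehydrogenase, differed by -0.46 (SE 0.08, limma adjusted p = 4.77e-05). Between high and low IMF 0 of the 7 passed, and the smallest unadjusted p values belonged to SDHC (0.07, p = 0.358), SDHA (-0.07, p = 0.425) and DLD (-0.16, p = 0.577).

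Genes of pyruvate entry lay mostly lower in S. Of 10 tested, 6 were lower and 1 was higher, with a median log2 difference of -0.60 beside 0.11 over all genes. Over all 7016 genes tested, 2072 were lower and 2867 higher in S. PDK2, a kinase that switches pyruvate dehydrogenase off, was the gene that was higher, with signals of 547 to 682 in S and 310 to 437 in no-S animals (0.78, SE 0.07, limma adjusted p = 7.68e-09). DLAT, the acetyltransferase core of the complex, differed by -0.98 (SE 0.11, adjusted p = 1.2e-07), and PDP1, a phosphatase that switches the complex on, by -1.04 (SE 0.12, adjusted p = 1.28e-07). Between high and low IMF 0 of the 10 passed, and 0 had an unadjusted p under 0.05. The smallest unadjusted p values belonged to the pyruvate carrier subunit MPC1 (-0.12) and the pyruvate dehydrogenase subunits PDHA1 (-0.15) and PDHB (-0.11).

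Among the cytosolic counterparts, shuttles and anaplerotic enzymes, 7 of 18 tested genes were higher and 6 lower in S, beside 2867 higher and 2072 lower of all 7016 genes tested. MMUT, which feeds propionate carbon into the cycle as succinyl-CoA, differed by -0.76 (SE 0.13, limma adjusted p = 1.9e-05), the oxoglutarate carrier SLC25A11 by 0.55 (SE 0.09, adjusted p = 1.91e-05) and the citrate carrier SLC25A1 by 0.86 (SE 0.15, adjusted p = 2.73e-05). Between high and low IMF 0 of 18 passed, and 2 had an unadjusted p under 0.05. ACLY, which splits exported citrate into acetyl-CoA for fatty acid synthesis, had a log2 difference of 0.55 (SE 0.24, unadjusted p = 0.0304), PCK2, the mitochondrial phosphoenolpyruvate carboxykinase, of 0.98 (SE 0.43, unadjusted p = 0.0308) and ME3, a mitochondrial malic enzyme, of -0.36 (SE 0.19, unadjusted p = 0.072).

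Of the related dehydrogenases and maturation factors, 6 of 12 tested were higher and 3 lower in S, where 4939 of all 7016 genes tested passed (2867 higher and 2072 lower). D2HGDH, which oxidises D-2-hydroxyglutarate to 2-oxoglutarate, differed by 0.60 (SE 0.07, limma adjusted p = 9.02e-08), SDHAF1, an assembly factor of succinate dehydrogenase, by 0.83 (SE 0.11, adjusted p = 1.03e-06), and LIAS, which makes the lipoyl group used by the OGDH and pyruvate dehydrogenase complexes, by -0.62 (SE 0.12, adjusted p = 8.25e-05). Between high and low IMF 0 of 12 passed and 0 had an unadjusted p under 0.05. The smallest belonged to the transhydrogenase ADHFE1 (-0.31), the lipoyltransferase LIPT1 (-0.26) and D2HGDH (-0.12). Of 4 tested regulators of mitochondrial genes, 1 passed between the title series: PPARGC1A, a coactivator of mitochondrial biogenesis, had 29 to 120 in S and 73 to 239 in no-S animals (-1.16, SE 0.24, adjusted p = 0.000189 with limma). The nuclear receptors PPARD (0.24) and PPARA (-0.15) did not pass, and between high and low IMF the log2 differences were -0.43 in PPARGC1A, 0.10 in PPARD and -0.11 in PPARA, with 0 of 4 passing, also at an unadjusted p under 0.05.

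**Figure D4:**
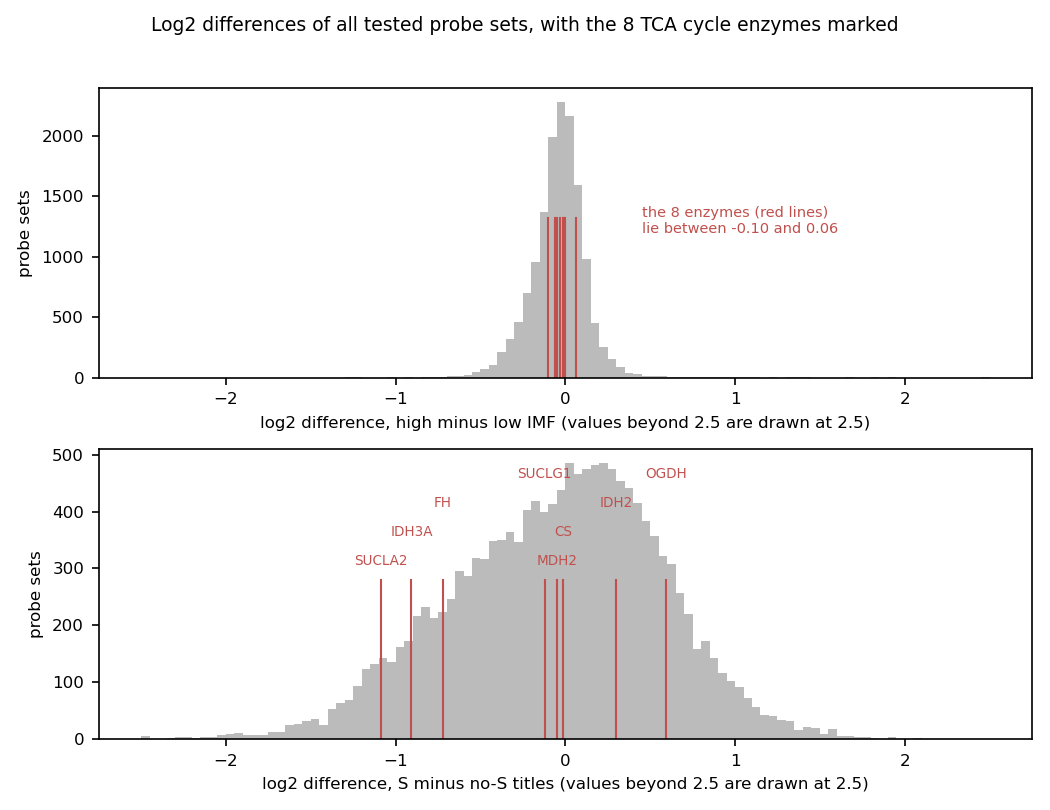
Distribution of the log2 differences of all 14410 tested probe sets, high minus low IMF above and S minus no-S titles below, with the brightest probe set of each of the 8 enzymes as a red line. The 8 enzymes lie between -0.10 and 0.06 for IMF and spread from -1.09 (SUCLA2) to 0.60 (OGDH) for the title series.

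Markers of other cells also differed between the title series, as did 4939 of all 7016 genes tested (2867 higher and 2072 lower in S). Of 5 tested adipocyte markers, 4 were higher in S, and the summed signal was 646 to 21897 (median 3306) in S and 422 to 4691 (median 1366) in no-S animals. Of 7 slow fibre markers, 3 were lower and none higher in S, with summed signals of 56875 to 85813 (median 75263) in S and 74378 to 85424 (median 82246) in no-S animals. Of 6 fast fibre markers, 3 were higher and 1 lower in S. The 3 prime to 5 prime signal ratio of the actin control, a measure of RNA and labelling quality, was 0.601 to 0.886 in S and 0.771 to 1 in no-S animals. That of the GAPD control was 0.722 to 0.823 in S and 0.729 to 0.878 in no-S animals. For the EF1a control it was 0.283 to 0.434 in S and 0.298 to 0.608 in no-S animals. The part of these in the differences of the cycle genes was not tested.

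From animal to animal within a title series, the cycle genes mostly went up and down together. In S animals the Pearson correlation of log2 signals was positive in 28 of 28 pairs of the 8 genes, with a median of 0.68 and a range of 0.14 to 0.90. In no-S animals it was positive in 26 of 28 pairs, with a median of 0.62 and a range of -0.20 to 0.88. After median centring of the arrays the median correlation was 0.59 in S and 0.66 in no-S animals, with 26 of 28 pairs positive in each. The median signal of the array had a positive r with all 8 genes in S animals (0.22 to 0.66). In no-S animals that r ran from -0.76 to 0.21, and 0 of these relations passed after adjustment. Without the 2 animals farthest from the median of this signal, r in S animals ran from -0.19 (IDH2) to 0.39 (SUCLG1). It was then below 0 in CS, IDH2, OGDH and FH. In no-S animals it then ran from -0.70 (CS) to 0.13 (SUCLA2). Pairs of other genes were not computed, so how usual such shares of positive pairs are on these arrays was not tested. The series were kept apart because 4 of the genes fall into separate ranges in S and no-S animals, and each series holds 5 high and 5 low IMF bulls.

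Few single pairs passed after adjustment over the 120 relations computed, each with a permutation test (100000 resamples) over 10 animals. By Pearson's r 4 pairs passed in S and 1 in no-S animals, and by Spearman's rho 4 in S and 0 in no-S animals. In S animals IDH2 and FH were related with r = 0.89 (permutation p = 0.00035, adjusted 0.0144) and rho = 0.90 (permutation p = 0.00068, adjusted 0.0408). IDH2 and MDH2 had r = 0.90 (permutation p = 0.00036, adjusted 0.0144) and rho = 0.94 (permutation p = 0.00024, adjusted 0.0288). IDH3A and SUCLG1 had r = 0.89 (permutation p = 0.00014, adjusted 0.0144) and rho = 0.82 (permutation p = 0.00597, adjusted 0.0651), and FH and MDH2 had r = 0.84 (permutation p = 0.00169, adjusted 0.0406) and rho = 0.89 (permutation p = 0.00129, adjusted 0.0498). CS and OGDH passed by rho alone, at 0.88 (permutation p = 0.00166, adjusted 0.0498), with r = 0.83 (permutation p = 0.00392, adjusted 0.0672) and r = 0.59 without the 2 animals farthest from the median of CS. Without the 2 animals farthest from the median of the gene named first, r was 0.80 for IDH2 and FH, 0.73 for IDH2 and MDH2, 0.70 for IDH3A and SUCLG1 and 0.79 for FH and MDH2. In no-S animals IDH2 and OGDH had r = 0.88 (permutation p = 0.00097, adjusted 0.0291), rho = 0.84 (permutation p = 0.00359, adjusted 0.0639) and r = 0.85 without the 2 farthest animals. OGDH and SUCLA2 had the lowest r of the 28 pairs in both series, with r = 0.14 in S and r = -0.20 in no-S animals. The slow fibre level had a positive r with all 8 genes in S (r from 0.53 to 0.75) and in no-S animals (0.07 to 0.55), but 0 of these relations passed after adjustment. Without the 2 animals farthest from the median slow fibre level, r ran from 0.42 to 0.81 in S and from 0.12 to 0.94 in no-S animals. The adipocyte level had a negative r with all 8 genes in S animals (-0.76 to -0.33), while in no-S animals r ran from -0.38 to 0.03. Of these relations 0 passed after adjustment too. Without the 2 animals farthest from the median adipocyte level, r in S animals ran from -0.56 (OGDH) to -0.14 (SUCLG1). In no-S animals r was then 0.71 with IDH2 and 0.65 with OGDH, against -0.01 with IDH2 and -0.06 with OGDH over all 10.

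The mean log2 signal of the 8 enzymes ran from 11.48 to 11.95 in S and from 11.75 to 12.14 in no-S animals. The genes most like this mean, by the lower of their Pearson correlations with it in the S and the no-S animals (10 each, 7008 genes compared), were NDUFS1, a subunit of respiratory complex I (0.94 in both), CYC1, a cytochrome subunit of complex III (0.92 in S and 0.94 in no-S), PDHB, a subunit of pyruvate dehydrogenase (0.94 in S and 0.91 in no-S), DLAT (0.89 in S and 0.95 in no-S) and IMMT, a protein of the inner membrane folds of mitochondria (0.88 in S and 0.94 in no-S). The shift of these genes between series varied in size and, in CYC1, in direction. The log2 difference, S minus no-S, was -1.05 in NDUFS1, -0.98 in DLAT, -0.60 in PDHB, -0.08 in IMMT and 0.47 in CYC1.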

How the data were processed

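Muscle RNA of 20 bulls was measured on 1 array each. Per the labels' protocols, labelled cRNA was made from 0.5 ug of total RNA. The authors deposited linear signal intensities per probe set, and the submitters' processing notes name GCOS 1.1.1 and Affymetrix Expression Console 1.1. The sources used here do not give the summarisation method, and the deposited normalization was kept. Of 24128 probe sets, 112 controls were removed and the 40% of lowest mean over all arrays left out, leaving 14410. Intensities were taken as log2(value + 1), so fold changes of dim probe sets are understated. Groups came from the IMF label and the title. Differences were tested with limma 3.58.1 in R 4.3.3 (two-sided, Benjamini-Hochberg over all tested probe sets, 0.05), and the series text's paired test was run unpaired, since the labels pair no animals. The members and gene lists were chosen with earlier results of these data known. By rule, all members were named, and from each other list the 3 genes of smallest p in each comparison, plus the 5 genes most like the members. Other genes were named as subunits of the same enzymes after their values were seen. Medians over genes use each gene's brightest probe set. The code was tested on simulated data. Pseudocount, filter, scaling, covariate, test, probe set choice and arrays left out were varied. The number of arrays limits the precision. Replicates are separate animals by their numbers.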

Additional observations from a re-analysis of the deposited data

Results flagged for a closer look

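In 6 of the 72 group and probe set pairs looked at, 1 animal stood apart by more than Dixon's 95% limit for its group. Chance flags about 5% of groups, and these pairs share animals, so they are not independent. In low IMF S animals, replicate 6 had the lowest SUCLG1 signal, 3061 against 3884 in the next animal, a gap of 0.73 of the group's range. The same animal was lowest in MDH2, with 8177 against 10149 and a gap of 0.74. In low IMF no-S animals, replicate 2 was lowest in MDH2, with 8466 against 10305 and a gap of 0.85, and in the weaker FH probe set, with 648 against 878 and a gap of 0.88. In high IMF no-S animals, replicate 1 was lowest in MDH2, with 9088 against 10519 and a gap of 0.76. In the weaker MDH2 probe set, replicate 7 of the 10 low IMF animals was highest, with 250 against 171 and a gap of 0.48.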

How the results depend on the processing

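Under every alternative run, 0 member probe sets passed between high and low IMF, overall or within a title series, and 7 passed between title series (5 of 8 genes when all probe sets of a gene were averaged). All 5 called genes kept their call. What turned was the sign of differences that no fit called. The cause was not tested. For high minus low IMF, centring arrays on their medians gave CS 0.01, IDH2 0.03, OGDH 0.03 and MDH2 0.04, with or without the title series in the model, and quantile normalization gave MDH2 0.06. Without the 4 arrays of high albumin IDH3A was 0.17, SUCLA2 0.21, FH 0.16 and MDH2 0.00. Since 3 of these arrays were high IMF S and 1 was low IMF no-S, the IMF groups left held unlike shares of the title series. With the title series also in the model IDH3A, SUCLA2, FH and MDH2 kept their sign, while OGDH was 0.07. Without the 2 dimmest arrays, both of high IMF S animals, IDH3A was 0.10, SUCLA2 0.10, FH 0.09 and MDH2 0.04, again with unlike shares of the title series. Both fits that add the title series to another change were chosen after seeing the data. For S minus no-S, CS was 0.05 centred, 0.02 quantile normalized and 0.01 without the high albumin or the dimmest arrays, and MDH2 was 0.02 centred and 0.05 averaged over probe sets. Within S animals, high minus low, IDH3A was 0.01 under both scalings, MDH2 0.05 under quantile normalization and OGDH 0.02 without the high albumin arrays. There, without the dimmest arrays, IDH3A was 0.09, SUCLA2 0.04, FH 0.03 and MDH2 0.03. Within no-S animals FH was 0.02 centred, 0.06 without the high albumin array and 0.02 averaged over probe sets. The difference between the IMF effects turned in IDH3A to -0.08 averaged over probe sets and, without the dimmest arrays, in SUCLA2 to 0.10, SUCLG1 to 0.04 and FH to 0.04. Leaving out 1 animal at a time, the ranges that crossed 0 for high minus low IMF were -0.07 to 0.01 in CS, -0.06 to 0.04 in IDH2, -0.16 to 0.02 in IDH3A, -0.06 to 0.05 in OGDH, -0.13 to 0.02 in FH and -0.04 to 0.03 in MDH2. For S minus no-S CS ran from -0.06 to 0.02. Within S animals IDH3A ran from -0.14 to 0.01 and SUCLG1 from -0.04 to 0.09, and within no-S animals SUCLA2 from -0.16 to 0.01, FH from -0.09 to 0.06 and MDH2 from -0.01 to 0.10. The difference between the IMF effects ran from -0.07 to 0.11 in IDH3A, -0.16 to 0.02 in SUCLA2 and -0.13 to 0.02 in SUCLG1. No paired analysis was possible because the labels pair no animals and the replicate numbers were given in accession order.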

Other observations

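PDK4, a kinase that switches pyruvate dehydrogenase off and rises with fatty acid use, had the largest difference between title series of the tested pyruvate entry genes, and is named here after its value was seen. Its signals were 494 to 3884 (median 1582) in S and 4436 to 9437 (median 6242) in no-S animals. These ranges did not overlap, as was so in 19.6% of all probe sets. The log2 difference was -2.01 (SE 0.32, limma adjusted p = 1.11e-05), opposite in direction to PDK2. The signals of PDK4 were 494 to 9437 (median 4010) in high IMF and 602 to 9141 (median 4160) in low IMF muscle. An overlap was fixed by the design, since each IMF group holds S and no-S animals.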
